A study of Mus musculus with 6 samples.

Results

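The mouse genes of feedback on MAP kinase signalling described here were 10 in number: the dual-specificity phosphatases Dusp1, Dusp4, Dusp5, Dusp6, Dusp8, Dusp10 and Dusp16, and the Sprouty genes Spry1, Spry2 and Spry4. They were followed among 19505 genes measured in cultured embryonic salivary glands. The gene names were picked with earlier results of these arrays in view, and the probe set of each gene was chosen by its mean over the 6 arrays. Each of the 10 had a single probe set, so that rule left nothing out, and those means ran from 7.59 for Spry4 to 11.01 for Dusp6 (log2 value). Because of this choice, every comparison of the 10 genes is a description.

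MAP kinases are switched on by phosphorylation, and the dual-specificity phosphatases take those phosphates off again. Dusp4, Dusp5 and Dusp6 act mainly on the ERK branch, which carries signals of receptor tyrosine kinases for growth factors such as FGF and EGF, and Dusp8, Dusp10 and Dusp16 mainly on the stress kinases JNK and p38. Dusp1 acts on all of these kinases. Sprouty proteins dampen the path from those receptors through Ras to ERK. Several of these genes are themselves switched on by MAP kinase activity, which makes the circuit a negative feedback, and in branching glands it tempers the response of the epithelium to FGF.

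The study compared glands left untreated (control, 3 arrays) with glands given TGF-β1 (3 arrays), to see what this growth factor does to them. All glands came from mouse embryos at a stage labelled T13 and were kept in culture for 72 hours, and cRNA with a biotin label was made from 6 µg of total RNA. The labels name no mouse strain, no type of salivary gland and no dose of the factor. Nor do they state that replicates were separate cultures, so a p-value measures the spread between these arrays, which may be technical.

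One control array stood apart, and it bears on every value of the group. What set control 3 apart is not given in the labels and was not tested, so control means, SDs and 6-array differences include an array of unknown standing. Its interquartile range was 2.05 on the log2 scale against 3.17 to 3.26 on the others. Control 3 correlated with the other 5 arrays at 0.550 to 0.601 (Pearson, across genes), against 0.974 to 0.990 among controls 1 and 2 and TGF-β1 1 and 2, and the median of 6 housekeeping genes there was -4.33 on the log2 scale relative to the mean of controls 1 and 2. TGF-β1 3 stood apart less, at 0.948 to 0.953 with these 4 arrays. Each difference of the 10 members is therefore given with and without control 3. For other genes, the differences with an SE come from a fit that keeps control 3 at a low weight. The tissue label was checked on markers. Of 10 epithelial markers all 10 had a probe set, and Cdh1, Krt8 and Krt18 were at 11.31 to 13.07 on the 5 arrays other than control 3, with Krt5 at 6.21 to 7.93.

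Promoter windows are shown for Dusp10, the member with the largest difference, and for Dusp1, Dusp5 and Dusp8, whose windows held a searched motif. They are RefSeq sequences on GRCm38.p6, from 250 bases before to 50 bases after the annotated start. Windows of 8 of the 10 members were used, with none for Dusp4 and Spry4. Capitals mark motif matches: the cAMP response element TGACGTCA in Dusp1 and Dusp8, and the CArG box bound by serum response factor in Dusp5.
Dusp10 (chr1:184034131-184034430, + strand): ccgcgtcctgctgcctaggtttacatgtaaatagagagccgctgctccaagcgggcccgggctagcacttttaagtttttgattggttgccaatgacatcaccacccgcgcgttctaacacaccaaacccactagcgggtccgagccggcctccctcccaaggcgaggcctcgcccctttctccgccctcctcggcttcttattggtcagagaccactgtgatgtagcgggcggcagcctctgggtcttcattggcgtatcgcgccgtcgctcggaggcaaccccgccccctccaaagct
Dusp1 (chr17:26508423-26508722, - strand): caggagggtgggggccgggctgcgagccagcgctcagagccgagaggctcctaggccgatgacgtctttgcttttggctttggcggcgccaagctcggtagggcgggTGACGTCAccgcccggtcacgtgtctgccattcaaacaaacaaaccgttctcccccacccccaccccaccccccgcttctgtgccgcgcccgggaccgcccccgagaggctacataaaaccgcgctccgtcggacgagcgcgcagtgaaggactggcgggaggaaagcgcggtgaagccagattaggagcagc
Dusp5 (chr19:53528895-53529194, + strand): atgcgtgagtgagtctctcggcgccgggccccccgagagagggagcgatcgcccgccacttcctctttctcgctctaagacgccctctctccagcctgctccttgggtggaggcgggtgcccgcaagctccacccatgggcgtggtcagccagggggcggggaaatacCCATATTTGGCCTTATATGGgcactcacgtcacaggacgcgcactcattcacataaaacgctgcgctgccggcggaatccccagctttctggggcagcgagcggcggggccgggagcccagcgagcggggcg
Dusp8 (chr7:142095235-142095534, - strand): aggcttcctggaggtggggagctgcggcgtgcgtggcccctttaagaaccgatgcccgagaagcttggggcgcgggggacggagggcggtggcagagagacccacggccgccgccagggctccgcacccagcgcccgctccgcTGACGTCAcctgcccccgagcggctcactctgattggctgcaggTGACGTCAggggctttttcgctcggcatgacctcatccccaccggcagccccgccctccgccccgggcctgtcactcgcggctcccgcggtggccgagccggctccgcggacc

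The motifs were searched on either strand, a palindrome being counted once per place. The Dusp1 window held TGACGTCA once, at position -143 from the start, and the Dusp8 window held it at -107 and -63. Of all 32851 windows in the table, 1.79% held this motif. Dusp5 held 2 adjoining CArG boxes, beginning at -82 and -72, where 1.63% of windows held at least 1. The AP-1 motif TGACTCA (in 5.20% of windows), the ETS motif CCGGAAG (8.86%) and the Smad motif GTCTAGAC (0.213%) were not found in any of the 8 windows. These matches describe letters in the windows.

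Among the phosphatases of the stress kinases, Dusp10 was lower after TGF-β1 by more than the SD of either group. Its log2 value was 10.71, 10.85 and 12.06 in controls 1, 2 and 3 and 9.53, 9.35 and 9.69 in TGF-β1 1, 2 and 3. The groups did not overlap, and control 3, the highest, widened the gap. The means were 11.21 ± 0.74 in the controls and 9.53 ± 0.17 in the TGF-β1 arrays (SD, n = 3 each), a log2 difference of -1.68 ± 0.43 (SE; 95% confidence interval -2.70 to -0.66). Over the genome this missed the threshold in limma's unweighted fit (adjusted p = 0.776, unadjusted 0.0057), as did every other gene.

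Dusp10 fell in the fit with array weights, which gives less say to arrays that deviate over all genes. The estimation of the weights did not converge, and they are treated as known, so p-values of this fit are too small. The log2 difference there was -1.34 ± 0.14 (limma, adjusted p = 4.73e-04), or 2.53-fold lower. Without control 3 and TGF-β1 3 it was also -1.34 ± 0.15 (limma, adjusted p = 0.0159), and without control 3 but with array weights -1.30 ± 0.14 (adjusted p = 0.0090). Without control 3 and with no weights the difference was -1.26 ± 0.18 (limma, adjusted p = 0.207). The array-weighted call was lost when control 1 (adjusted p = 0.939), control 2 (0.979), TGF-β1 1 (0.172) or TGF-β1 2 (0.160) was left out, and stood at 0.0282 without TGF-β1 3. The weights also did not converge when TGF-β1 1, 2 or 3 was left out. The difference kept its sign in all of these fits.

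Dusp10 was the 1 member called in the array-weighted fit, 1 of 10, where 3.44% of all genes were called lower. Leaving out control 3 and TGF-β1 3, it was again the 1 member called, against 1.45% of all genes called lower. With control 3 out and array weights in, that background was 1.53%. In the unweighted fit of 6 arrays 0 of 10 members and 0% of all genes were called (389 genes at an unadjusted p under 0.05, 1 of them a member).

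**Figure D1:**
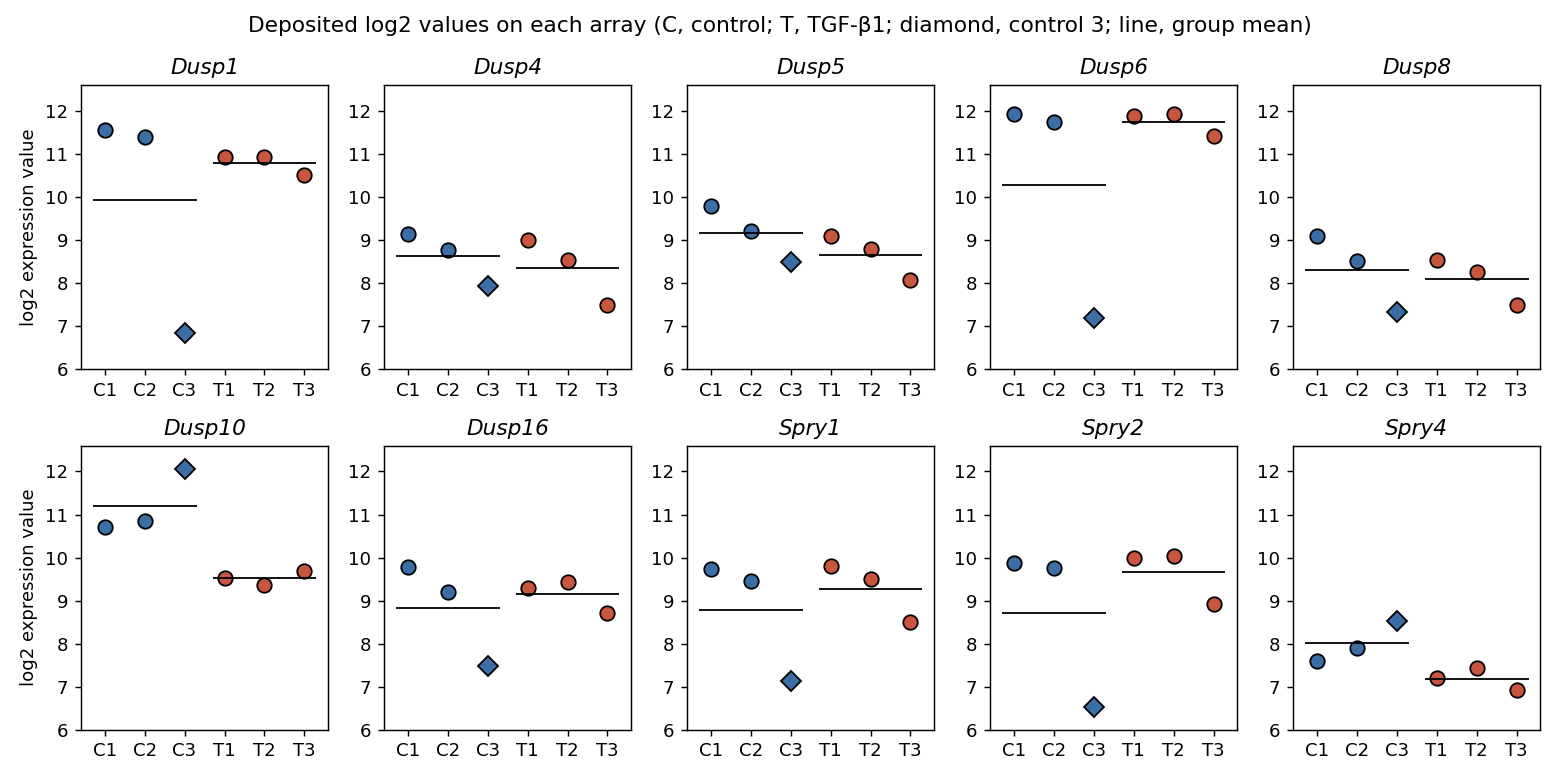
Deposited log2 value (vertical axis) of the 10 genes on each array: C1 to C3 are the controls, T1 to T3 the TGF-β1 arrays, the diamond is control 3 and each line is the mean of 3 arrays. Dusp10 separates the groups, with controls from 10.71 to 12.06 and TGF-β1 arrays from 9.35 to 9.69; control 3 lies below the other 5 arrays in Dusp1, Dusp6, Dusp8, Dusp16, Spry1 and Spry2.

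Dusp16, which also acts on JNK and p38, showed no such separation. It was at 9.79, 9.19 and 7.49 in controls 1 to 3 and at 9.30, 9.43 and 8.71 in the TGF-β1 arrays. TGF-β1 1 and 2 lay between controls 1 and 2. The log2 difference was 0.32 ± 0.61 on 6 arrays, -0.030 ± 0.19 with array weights (95% confidence interval -0.45 to 0.39) and -0.34 ± 0.29 without control 3, so its sign followed control 3. Without control 3 and TGF-β1 3 it was -0.12 ± 0.21.

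Dusp8, another phosphatase of JNK and p38, was at 9.09, 8.50 and 7.31 in the controls and at 8.52, 8.26 and 7.48 in the TGF-β1 arrays. Controls 1 and 2 differed from each other by 0.58, and TGF-β1 1 was at the level of control 2. The log2 difference was -0.22 ± 0.54 on 6 arrays and -0.28 ± 0.20 with array weights (limma, adjusted p = 0.513). It was -0.71 ± 0.35 without control 3 and -0.41 ± 0.22 without control 3 and TGF-β1 3 (adjusted p = 0.767 and 0.421).

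Dusp1, an early response gene that acts on ERK, JNK and p38, was at 11.54 and 11.40 in controls 1 and 2 and at 10.92, 10.92 and 10.52 in TGF-β1 1 to 3. All 3 TGF-β1 arrays thus lay under these controls, while control 3, at 6.84, lay far under them. With control 3 the log2 difference was 0.86 ± 1.19, its sign set by that array. Without it the difference was -0.69 ± 0.19 (limma, adjusted p = 0.419), with array weights -0.52 ± 0.20 (adjusted p = 0.153) and without control 3 and TGF-β1 3 -0.55 ± 0.14 (adjusted p = 0.104). Dusp1 passed in none of these fits.

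Of the phosphatases that act mainly on ERK, Dusp5, a nuclear enzyme specific for ERK, came closest to a separation. It was at 9.79, 9.20 and 8.49 in controls 1 to 3 and at 9.08, 8.78 and 8.05 in the TGF-β1 arrays. The TGF-β1 arrays lay under controls 1 and 2, but controls 1 and 2 were themselves 0.60 apart. The log2 difference was -0.52 ± 0.46 on 6 arrays and -0.43 ± 0.20 with array weights (limma, adjusted p = 0.267). It was -0.86 ± 0.35 without control 3 and -0.57 ± 0.23 without control 3 and TGF-β1 3 (adjusted p = 0.651 and 0.266).

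Dusp6, the cytoplasmic phosphatase of ERK and a widely used readout of FGF signalling, stayed within a narrow band outside control 3. It was at 11.92 and 11.75 in controls 1 and 2, at 7.19 in control 3 and at 11.87, 11.92 and 11.41 in the TGF-β1 arrays. TGF-β1 1 and 2 lay at the level of controls 1 and 2. The log2 difference was 0.10 ± 0.20 with array weights, with a 95% confidence interval of -0.34 to 0.53, and 0.07 ± 0.15 without control 3 and TGF-β1 3 (-0.28 to 0.41). With all 6 arrays unweighted it was 1.45 ± 1.20, and -0.10 ± 0.21 without control 3.

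Dusp4, a nuclear phosphatase, was at 9.14, 8.77 and 7.93 in the controls and at 8.99, 8.53 and 7.49 in the TGF-β1 arrays. The groups overlapped throughout. The log2 difference was -0.28 ± 0.51 on 6 arrays and -0.11 ± 0.22 with array weights (limma, adjusted p = 0.844). It was -0.62 ± 0.44 without control 3 and -0.20 ± 0.21 without control 3 and TGF-β1 3 (adjusted p = 0.884 and 0.720).

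Among the Sprouty genes, Spry4 was the one whose groups did not overlap. It was at 7.60, 7.90 and 8.52 in controls 1 to 3 and at 7.21, 7.42 and 6.91 in the TGF-β1 arrays. The gap between the nearest arrays was small beside the spread within the groups. The log2 difference was -0.83 ± 0.36 on 6 arrays (limma, adjusted p = 0.776), -0.56 ± 0.15 with array weights (adjusted p = 0.0513), -0.57 ± 0.21 without control 3 (adjusted p = 0.606) and -0.43 ± 0.17 without control 3 and TGF-β1 3 (adjusted p = 0.258). It did not pass.

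Spry1 and Spry2 did not separate. Spry1 was at 9.74, 9.46 and 7.14 in the controls and at 9.81, 9.50 and 8.50 in the TGF-β1 arrays. Spry2 was at 9.87, 9.76 and 6.53 in the controls and at 10.001, 10.05 and 8.92 in the TGF-β1 arrays. In either gene TGF-β1 1 and 2 lay at or slightly above controls 1 and 2, and TGF-β1 3 about a log2 unit below them. With array weights the log2 differences were 0.11 ± 0.21 (95% confidence interval -0.34 to 0.57) for Spry1 and 0.18 ± 0.20 (-0.25 to 0.62) for Spry2. For Spry1 the difference was 0.49 ± 0.74 on 6 arrays, -0.33 ± 0.39 without control 3 and 0.05 ± 0.18 without control 3 and TGF-β1 3. For Spry2 these were 0.94 ± 0.91, -0.16 ± 0.36 and 0.21 ± 0.14. Neither gene passed in any of these limma fits.

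**Figure D2:**
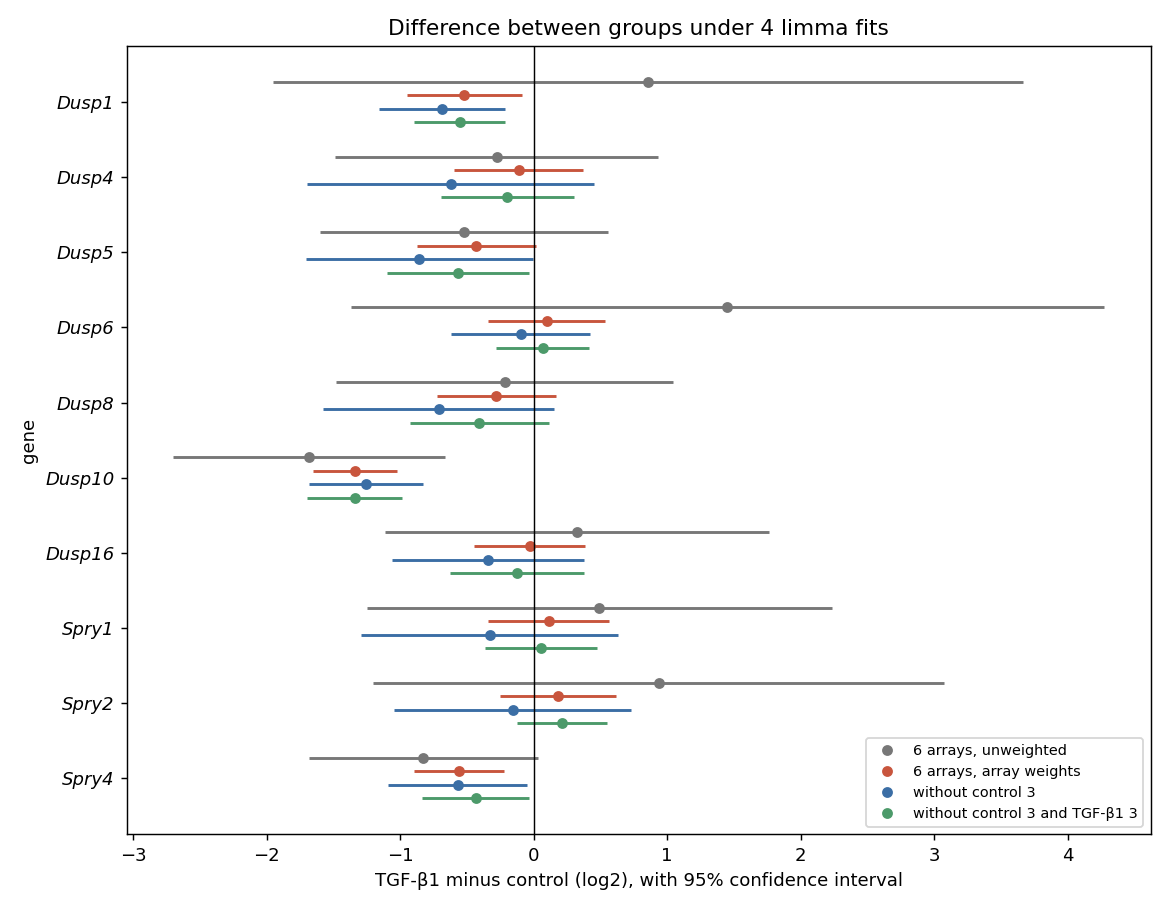
Log2 difference, TGF-β1 minus control (horizontal axis), with its 95% confidence interval for each gene under 4 limma fits, coloured by fit. The Dusp10 intervals lie below 0 in all 4 fits; the unweighted 6-array estimates of Dusp1 and Dusp6, at 0.86 and 1.45, have the widest intervals.

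Over the 10 genes the median log2 difference was 0.05 on 6 arrays, -0.20 with array weights, -0.60 without control 3 and -0.30 without control 3 and TGF-β1 3. The same medians over all genes were -0.14, 0.01, 0.01 and 0.01. The members below 0 numbered 5 of 10 on 6 arrays, 7 with array weights, 10 without control 3 and 7 without control 3 and TGF-β1 3. The shares of all genes below 0 in these fits were 59.5%, 49.1%, 48.7% and 48.9%. All 3 TGF-β1 arrays lay below all 3 controls in 2 of 10 members, Dusp10 and Spry4, and in 5.78% of all genes. Against controls 1 and 2 alone this held for 4 of 10 members, Dusp1, Dusp5, Dusp10 and Spry4, and for 12.3% of all genes. All TGF-β1 arrays lay above controls 1 and 2 in 0 of 10 members and in 12.8% of all genes.

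The other source of variation among the members was TGF-β1 3. It lay below TGF-β1 1 and 2 in 9 of 10 members, every one but Dusp10, and in 43.1% of all genes. The shortfall against the mean of TGF-β1 1 and 2 was widest in Dusp4 (-1.28), Spry1 (-1.15) and Spry2 (-1.10) and narrowest in Dusp1 (-0.40) and Spry4 (-0.40), on the log2 scale. Dusp10 was 0.25 higher there. Control 3 lay below the other 5 arrays in 6 of 10 members and in 32.4% of all genes, by up to 4.64 log2 units from the mean of controls 1 and 2 (Dusp6). It lay above the other 5 in 2 of 10 members, Dusp10 and Spry4, and in 51.9% of all genes. On the other 5 arrays all 10 members were above the median of the array. The shares over all genes include dim genes, so they are not shares among genes of like level.

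**Figure D3:**
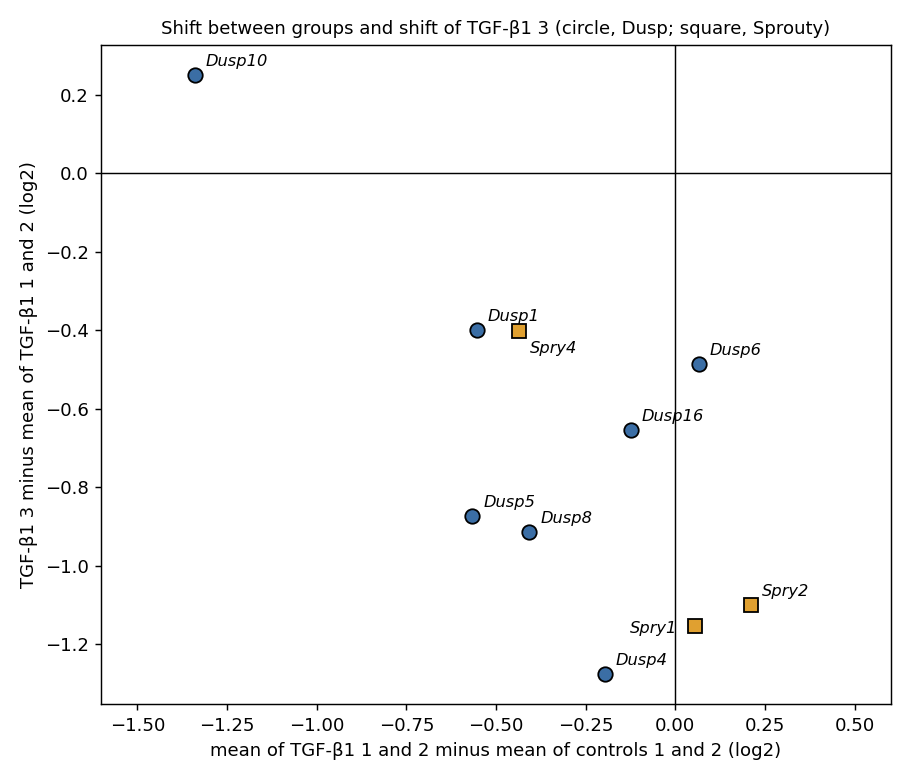
Each point is 1 gene: the horizontal axis gives the mean of TGF-β1 1 and 2 minus the mean of controls 1 and 2, and the vertical axis TGF-β1 3 minus the mean of TGF-β1 1 and 2, both in log2 units. Dusp10 stands alone at -1.34 and 0.25; Spry1 and Spry2 lie right of 0 horizontally and at -1.15 and -1.10 vertically.

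Dusp2, Dusp7, Dusp9 and Spry3 complete the same families. Dusp9, a cytoplasmic phosphatase of ERK, was at 7.30, 7.28 and 7.76 in the controls and at 6.81, 6.37 and 6.55 in the TGF-β1 arrays. Its groups did not overlap, and it fell by 0.64 ± 0.16 on the log2 scale with array weights (limma, adjusted p = 0.0351), but its adjusted p was 0.104 once control 3 and TGF-β1 3 were left out. With array weights Dusp2 differed by -0.32 ± 0.21 and Dusp7 by 0.09 ± 0.15. Spry3 was at 4.04 to 4.73 on all arrays, under the lower quartile of each, and differed by -0.37 ± 0.17. None of the last 3 passed.

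The pathway around the members was read from lists written by function. Of 17 genes listed as acting at the level of receptors and Ras (Spred, Rasa, Il17rd and others), 1 fell with array weights, 0 rose and 16 did not pass. The gene that fell was Flrt3, a membrane protein that binds FGF receptors, by 1.09 ± 0.22. Flrt3 was not called once control 3 and TGF-β1 3 were left out (limma, adjusted p = 0.0651). Of 19 other dual-specificity and related phosphatases 0 passed, and the one of smallest p, Ssh3, a cofilin phosphatase, differed by 0.59 ± 0.17 (limma, adjusted p = 0.0576). Of 14 genes of the cascade from Ras to ERK 0 passed; Braf, a kinase upstream of ERK, had the smallest p and differed by -0.45 ± 0.14 (adjusted p = 0.0801). Of 21 genes of p38, JNK and ERK5 signalling 2 fell, Map3k14, a kinase of NF-κB signalling, by 1.05 ± 0.15 and Map3k8, a kinase upstream of ERK, by 0.93 ± 0.23, and of the pair only Map3k14 was called once control 3 and TGF-β1 3 were left out.

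Of 25 ERK output and early response genes, 5 fell with array weights, 1 rose and 19 did not pass. Fosl2 and Junb, subunits of the AP-1 transcription factor, fell by 2.07 ± 0.17 (limma, adjusted p = 1.39e-04) and 1.37 ± 0.17 on the log2 scale, as did the early response factors Egr1, Egr2 and Egr3 by 1.17 ± 0.27, 1.03 ± 0.27 and 0.78 ± 0.16. Etv1, an ETS factor, rose by 2.15 ± 0.35. Leaving out control 3 and TGF-β1 3, Egr3 and Etv1 were not called, and Fosb, another AP-1 subunit, was. Of 27 receptor kinase inputs 3 fell and 1 rose: Fgf10, Hgf and Fgf7, mesenchymal growth factors, by 1.57 ± 0.21, 1.87 ± 0.25 and 1.29 ± 0.18, and Fgf1 up by 1.79 ± 0.24. These 4 genes were called again with control 3 and TGF-β1 3 left out. Over all genes that fit called 670 lower and 672 higher.

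Profiles most like each member were found by the root mean square distance between log2 profiles centred over the 6 arrays, among named genes. Dusp10 was nearest to Egr3 (0.290) and Slc4a4 (0.304), the latter a bicarbonate cotransporter. Egr3 was at 8.37, 8.48 and 9.84 in the controls and at 7.79, 7.55 and 7.19 in the TGF-β1 arrays, so it shared the high value in control 3. Egr3 had 3 probe sets, and only the one with the highest mean is shown. Dusp6 was nearest to Eef1a1 (0.0488), a translation factor of all cells, Spry2 to Nbea (0.0390) and Dusp1 to Cblb (0.0727), and these 3 pairs share the drop in control 3. Dusp10 had the largest distance to its neighbour among the 10 members.

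Markers of the tissues in the gland also differed between arrays. Relative to the mean of controls 1 and 2, the median of 10 epithelial markers was 0.08 to 1.04 in the TGF-β1 arrays and that of 9 mesenchymal markers -0.59 to -0.20 (log2). Their log2 summed levels were 14.21 to 14.66 in the TGF-β1 arrays against 13.77 to 14.16 in controls 1 and 2 for the epithelium, and 13.12 to 13.78 against 13.62 to 13.91 for the mesenchyme. The epithelial markers did not move together. Between the means of controls 1 and 2 and of TGF-β1 1 and 2, Krt14, Krt5, Krt19 and Trp63 changed by -0.77, -0.59, -0.49 and -0.28. The other epithelial markers (Krt8, Krt18, Cdh1, Epcam, Aqp5 and Sox10) changed by 0.15 (Krt18) to 1.18 (Sox10). TGF-β1 3 is not in these changes and departed from several of them. Krt14, Krt5 and Krt19 were at 11.39, 7.93 and 9.29 there, above every control. Trp63 and Cdh1 were at 9.19 and 11.63 there, below controls 1 and 2. With array weights 3 of 10 epithelial markers rose and 1 of 9 mesenchymal markers fell. Of all 19505 genes, 672 rose and 670 fell in that fit. Of 5 measured neuronal markers 3 rose, of 8 endothelial markers 1 fell, and of 7 macrophage and 8 skeletal muscle markers 0 passed. Leaving out control 3 and TGF-β1 3, 2 of 10 epithelial, 0 of 9 mesenchymal, 0 of 5 neuronal and 1 of 8 endothelial markers were called. Of all 19505 genes, 223 were called higher and 282 lower there. Counts this small are a description of the listed markers. TGF-β1 3 had the highest epithelial, neuronal and macrophage medians of the 6 arrays (1.04, 1.26 and 0.62). No marker was listed at 0. The part of cell composition in the Dusp and Sprouty values was not tested, and in whole glands fewer cells of a type and less RNA per cell cannot be told apart.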

How the data were processed

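Per the submitters' processing notes, the authors made the deposited log2 values, 1 per probe set, with RMA; no version, array batch or genome build is given in the sources used here. Of 22206 probe sets, 19572 had 1 gene symbol in the platform annotation, 0 had several and 2634 were unnamed. The probe set with the highest mean stood for a gene, giving 19505 genes. No filter or further scaling was applied.

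The 3 control and 3 TGF-β1 arrays entered a limma fit (version 3.58.1, R 4.3.3; two-sided moderated test, group as only term). Benjamini-Hochberg adjustment ran over all genes, with 0.05 as the threshold of a call. "Rose" and "fell" refer to the fit with array weights (arrayWeights). Its weights were 0.0338 for control 3, 0.398 for TGF-β1 3 and 1.65 to 4.52 for the others, their estimation did not converge, and they are treated as known, so its p-values are too small. The members and gene lists were chosen with earlier results of these data known. All 10 members and their relatives are named; each other list gives up to 2 called genes per direction, or else its gene of smallest array-weighted p, and nearest profiles give 2 genes per member, some of which are named. Egr1, Egr2, Egr3, Fosb, Fgf7 and the markers given with values were added after their values were seen. Promoter windows were matched by symbol. For members the match left out a chromosome by rule, while the shares over all windows had no such filter. The number of arrays limits the precision.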

Additional observations from a re-analysis of the deposited data

How the results depend on the processing

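The 10 differences were recomputed under 20 alternatives, 5 of them (array weights with each array but control 3 left out) chosen after seeing the data. The alternatives also include fits that leave out control 3, alone or with TGF-β1 3. Those arrays stood apart in these same data. Of the 200 values, 164 kept sign and side of the threshold, 4 (all Dusp10) passed and 32 changed sign. Dusp10 and Spry4 kept their sign in all 20. The replicate block, the filter on dim genes, the mean of probe sets and the other prior leave each member's difference as it was. No sign could change under these alternatives, so they add to the kept signs by construction. Calls among members and all genes were 1 and 1342 with array weights, 1 and 544 with control 3 left out and array weights, and 1 and 505 with control 3 and TGF-β1 3 left out. Leaving out 1 array gave 0 and 0 unweighted, and with array weights 0 to 1 and 0 to 375. Dusp1 was at -0.52 and Dusp16 at -0.030 with array weights, at -0.58 and -0.18 with control 3 also left out, and at -0.55 and -0.12 with control 3 and TGF-β1 3 left out. With 1 array left out, unweighted values ran from -0.69 to 1.67 for Dusp1, -0.62 to 0.15 for Dusp4, -0.10 to 2.27 for Dusp6, -0.71 to 0.18 for Dusp8, -0.34 to 0.81 for Dusp16, -0.33 to 0.97 for Spry1 and -0.16 to 1.51 for Spry2. With array weights they ran from -0.75 to 1.77, -1.11 to 0.40, -0.20 to 2.40, -1.19 to 0.46, -0.74 to 0.97, -0.70 to 1.33 and -0.35 to 1.81, and for Dusp5 from -1.35 to 0.075. Leaving out control 3 alone turned the sign of Dusp1, Dusp6, Dusp16, Spry1 and Spry2; for the other changes of sign the cause was not tested.

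The replicate block changed no call (0 members, 0 genes; Dusp10 at -1.68, limma adjusted p = 0.800). Deviations of same-numbered arrays correlated at -0.0662, -0.0078 and -0.0501, so the numbers were not taken as pairs. Quantile normalization, median centring, the filter on dim genes, the mean of probe sets, the other prior and an adjusted p under 0.1 also gave 0 members called. Each of these was run without array weights. In the limma fit with array weights, the adjusted p was under 0.1 for Dusp10 (4.73e-04) and Spry4 (0.0513). The SE of the unweighted differences ran from 0.36 to 1.19 and 1.20 in Dusp1 and Dusp6.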
